A study of Mus musculus with 12 samples.

Results

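The 10 secreted glycoproteins of the extracellular matrix described here were measured across colon and urinary bladder of mice with and without YAP/TAZ in smooth muscle. They are the tenascins *Tnc* and *Tnxb*, the thrombospondins *Thbs1*, *Thbs2*, and *Thbs4*, periostin (*Postn*), osteopontin (*Spp1*), *Sparc*, fibronectin (*Fn1*), and elastin (*Eln*), chosen by gene name, and they make up 10 of the 54532 genes in the deposited tables. The genes *Yap1* and *Wwtr1* encode YAP and TAZ, co-activators of transcription that reach DNA through TEAD factors. RNA was sequenced from distal colon and urinary bladder, with 3 control (Ctrl) and 3 knockout (Y/T KO) libraries per tissue, each from 1 mouse, 12 libraries from 9 mice in all.

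All mice were male, 5 to 7 weeks of age, and carried floxed *Yap1* and *Wwtr1*, and all were given 5 daily tamoxifen injections (1 mg per mouse per day), with tissue taken on day 7 after the first. Y/T KO mice carried Myh11CreERT2, a tamoxifen-activated Cre recombinase under the smooth muscle myosin heavy chain promoter, and Ctrl mice were Cre-negative, so that the Cre itself is present on the knockout side alone. The Ctrl colons were those of mice 788, 786, and 787, and the Y/T KO colons those of mice 759, 783, and 780. For the bladder, Ctrl mice were 784, 785, and 788, and Y/T KO mice were 782, 783, and 780. Both tissues were thus sequenced from mice 788, 783, and 780. Values of single libraries below follow these orders of mice. They are TPM (a transcript abundance scaled to transcript length and to a fixed library total), so that levels of different genes can be compared.

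Matricellular proteins such as tenascins, thrombospondins, periostin, osteopontin, and SPARC sit in the matrix without being its main scaffold, and they modulate how cells attach and respond to growth factors. Several of them are known to be made at high levels during development and after injury and at low levels in resting adult tissue. Fibronectin forms adhesive fibrils that cells bind through integrins, and elastin is the core of the fibers that let organ walls recoil after stretch.

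The promoters of 3 members are shown because *Tnc* was the only member called between genotypes and because *Thbs2* and *Thbs4* had opposite distributions between the organs. Each line holds the 250 bases before the RefSeq transcription start (GRCm38.p6), 5′ to 3′ on the strand of the gene, from chr4:64047016-64047265 for *Tnc*, chr17:14694263-14694512 for *Thbs2*, and chr13:92794819-92795068 for *Thbs4*, which all lie on the minus strand. Capitals mark the TEAD motif CATTCC or the TATA box TATAAA, which reads TTTATA where it lies on the other strand, as in *Thbs2*.
Tnc: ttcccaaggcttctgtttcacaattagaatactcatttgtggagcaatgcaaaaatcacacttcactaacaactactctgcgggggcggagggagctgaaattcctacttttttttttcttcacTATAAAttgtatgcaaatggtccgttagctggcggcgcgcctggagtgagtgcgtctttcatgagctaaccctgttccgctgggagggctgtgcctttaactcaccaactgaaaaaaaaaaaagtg
Thbs2: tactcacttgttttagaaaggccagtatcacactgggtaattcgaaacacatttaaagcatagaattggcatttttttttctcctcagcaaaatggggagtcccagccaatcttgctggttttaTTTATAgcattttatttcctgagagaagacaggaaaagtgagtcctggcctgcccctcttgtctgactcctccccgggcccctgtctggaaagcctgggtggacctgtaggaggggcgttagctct
Thbs4: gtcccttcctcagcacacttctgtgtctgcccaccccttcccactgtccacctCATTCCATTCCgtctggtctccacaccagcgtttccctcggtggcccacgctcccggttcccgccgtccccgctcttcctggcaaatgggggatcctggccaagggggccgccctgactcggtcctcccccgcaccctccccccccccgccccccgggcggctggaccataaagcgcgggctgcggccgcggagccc
The *Thbs4* window held 2 copies of CATTCC that share a base, at 197 to 192 and 192 to 187 bases before the start, and the *Tnc* and *Thbs2* windows held none. At least 1 CATTCC was found in 12.6% of 32851 promoters of this length, and at least 2 in 1.02%. TATAAA lay at 126 to 121 bases before the start in *Tnc* and, on the opposite strand, in *Thbs2*, at 26 to 21 in *Postn*, and at 211 to 206 in *Spp1*, and was found in 12.4% of all promoters. Of the 10 members, 7 had a RefSeq promoter entry and 6 had a window free of annotated exons. *Tnxb*, *Postn*, and *Spp1*, the other windows searched, held no CATTCC. The AP-1 motif TGANTCA was found in *Tnxb* (6.75% of promoters), and the CArG box bound by serum response factor was found in 0 of the 6 (1.47% of promoters). These matches describe the letters in the windows and are not measured binding sites.

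Aligned sequence amounted to 2.80 to 3.94 gigabases per library. *Yap1* ran from 45.8 to 54.9 TPM in Ctrl colon and from 41.3 to 47.0 TPM in colon labelled Y/T KO, and from 98.6 to 110 TPM and 69.4 to 72.1 TPM in bladder. *Wwtr1* was no lower under the Y/T KO label (16.8 to 21.5 against 17.9 to 22.7 TPM in colon, 32.5 to 61.6 against 48.3 to 60.8 TPM in bladder), and neither gene passed the test in either tissue, so genotypes are taken from the labels. The bladder libraries of the genotypes did not overlap for *Yap1* (log2 difference -0.54, limma adjusted p = 0.0625, or 0.0476 in the fit that takes the mouse as a block). *Ankrd1* was also checked, though it was not among the genes planned as checks. It was lower without overlap under the Y/T KO label in both tissues. It passed the test in colon (means 3.59 and 0.207 TPM, log2 difference -3.58, limma adjusted p = 0.038). In bladder it did not pass (-5.79, limma adjusted p = 0.141). *Ctgf* and *Cyr61* overlapped between genotypes in both tissues and did not pass. The part of YAP/TAZ loss in these values was not tested. Defining markers fitted the labelled tissues: 10 colon epithelial markers summed to 12112 to 15007 TPM in colon, *Cdx2* and *Muc2* among them were at 0 in every bladder library, and 10 urothelial markers summed to 4869 to 6586 TPM in bladder. The 9 smooth muscle markers summed to 7594 to 8322 TPM in Ctrl colon and 4972 to 5846 TPM in Y/T KO colon, and to 35432 to 46154 and 16986 to 31108 TPM in Ctrl and Y/T KO bladder. All 9 were below Ctrl in both tissues (median log2 difference -0.45 in colon and -0.80 in bladder), with 0 of 9 called. The 7 skeletal muscle markers summed to 1265, 6132, and 6786 TPM in Y/T KO bladders and 1364 to 1993 TPM in Ctrl bladder. The 7 pancreatic acinar markers summed to 7.78 to 142 TPM in Ctrl colon and at most 1.08 TPM in Y/T KO colon. In whole organ walls, fewer cells of a type and less RNA per cell cannot be told apart.

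**Figure D1:**
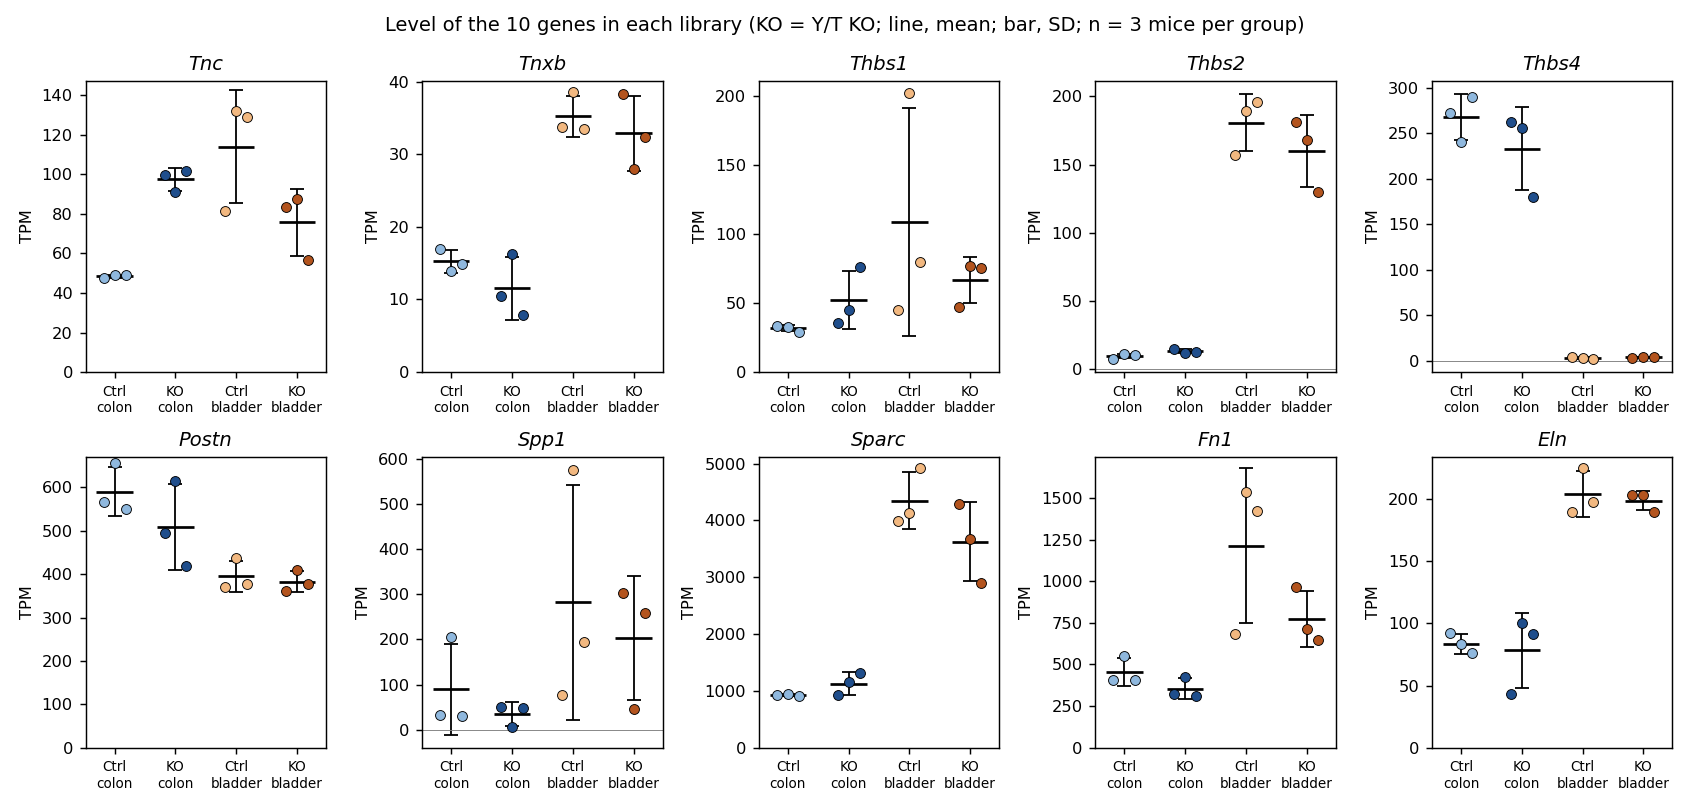
TPM of each of the 10 genes (y axis, linear from 0) in each library of the 4 groups (x axis), with the mean as a line and the SD as a bar, n = 3. *Tnc* separates the genotypes in the colon, with Ctrl colon between 47.6 and 49.0 TPM and Y/T KO colon between 91.0 and 102 TPM. *Thbs1* and *Thbs2* also do so by smaller differences that did not pass the test. *Tnxb*, *Thbs2*, *Thbs4*, *Postn*, *Sparc*, *Fn1*, and *Eln* separate the organs in the same direction in both genotypes.

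All 10 members passed the filter on low values in both organs. *Sparc*, which encodes a collagen-binding glycoprotein, had the highest level of the 10 in every library, and it made up 34.0% to 51.3% of the members' summed TPM in colon and 55.3% to 70.9% in bladder. The sum over the 10 members ran from 2264 to 2793 TPM in colon and from 4678 to 7554 TPM in bladder. In Ctrl colon, mean levels in TPM descended from *Sparc* (931) through *Postn* (591), *Fn1* (456), *Thbs4* (267), *Spp1* (89.8), *Eln* (83.7), *Tnc* (48.5), *Thbs1* (31.8), and *Tnxb* (15.3) to *Thbs2* (9.62). Neighbors in this order had separate ranges apart from *Postn* and *Fn1* and from *Spp1* and *Eln*, whose libraries overlapped. The order in Ctrl bladder was *Sparc* (4348), *Fn1* (1213), *Postn* (396), *Spp1* (282), *Eln* (204), *Thbs2* (181), *Tnc* (114), *Thbs1* (109), *Tnxb* (35.2), and *Thbs4* (2.89). There the libraries of *Postn* overlapped those of *Spp1*, those of *Spp1* overlapped *Eln*, those of *Eln* overlapped *Thbs2*, and those of *Tnc* overlapped *Thbs1*, while the other neighbors were separate. *Thbs2* was thus the lowest member in Ctrl colon and *Thbs4* the lowest in Ctrl bladder.

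Genotypes were compared within each tissue by limma on log2(rescaled TPM + 0.1), with Benjamini-Hochberg adjustment over every gene tested and a call at an adjusted p under 0.05. *Tnc* was the only member called in the colon, 1 of 10 members against 0.137% of the 17500 genes tested (0.0571% in the higher direction). In the bladder 0 of 10 members were called, against 0.302% of 18237 genes. At an unadjusted p under 0.05, limma gave 3 members in the colon (*Tnc*, *Thbs1*, and *Thbs2*, all higher; 5.14% of all genes were higher by this rule) and 1 in the bladder (*Tnc*, lower; 8.2% of all genes). The 3 colon members were also those with no overlap between genotypes (7.52% of all genes did not overlap in the higher direction), and in the bladder every member overlapped (20.4% of all genes did not). The median log2 difference of the 10 members was -0.16 in the colon, beside 0.006 over all genes, and -0.23 in the bladder, beside 0.002. In the bladder 9 of 10 members had a negative difference, and *Thbs4* was the exception (50.2% of all genes had a difference above 0). This count changed when single libraries were left out. Without Ctrl mouse 785, *Thbs1* (0.12), *Postn* (0.03), *Spp1* (0.32), and *Eln* (0.04) were also above 0. *Postn* (0.02) turned positive without Y/T KO mouse 782, and *Spp1* (0.42) without Y/T KO mouse 783. *Thbs4* turned negative (-0.06) without Ctrl mouse 788. Of the bladder adipocyte markers, 5 of 5 had a difference above 0 (median 0.87), and they summed to 1853 to 3731 TPM over the Ctrl libraries and 3118 to 4844 TPM over the Y/T KO libraries. Of the mesothelium markers, 0 of 6 did (median -0.73), with sums of 808 to 1078 and 460 to 817 TPM. Skeletal muscle markers were above 0 in 7 of 7 (median 2.74), and smooth muscle markers in 0 of 9 (median -0.8). The part of these and the other marker lists in the members' differences was not tested. With 3 libraries against 3, an exact permutation test of a single gene cannot go below p = 0.1.

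*Tnc* encodes tenascin-C, a hexameric glycoprotein that counteracts adhesion to fibronectin (ENSMUSG00000028364, chr4:63959785-64047015, minus strand). It stood at 47.6, 48.9, and 49.0 TPM in Ctrl colons and 99.6, 91.0, and 102 TPM in Y/T KO colons. The Ctrl libraries had a coefficient of variation of 1.59%, and every Y/T KO library was above every Ctrl library. *Tnc* rose 2.06-fold in Y/T KO colon, a log2 difference of 1.04 (SE 0.13, limma adjusted p = 0.0446), and had the 19th smallest p of 17500 genes. The call was lost when all 12 libraries were fitted together with the mouse as a block (log2 difference 1.02, adjusted p = 0.0616 by limma, and 0.0617 without the block), and when any colon library was left out (log2 difference 0.98 to 1.10, adjusted p 0.0691 to 0.195). Beside this difference, the 10 fibroblast markers summed to 2429 to 3057 TPM in Ctrl and 2688 to 3275 TPM in Y/T KO colon, and the 8 macrophage markers to 428 to 588 and 560 to 837 TPM, with all 8 above Ctrl and 0 called; their part in the result was not tested.

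In the bladder *Tnc* pointed the other way. Its levels were 81.3, 132, and 129 TPM in Ctrl bladders and 83.3, 87.8, and 56.5 TPM in Y/T KO bladders, and the genotypes overlapped through Ctrl mouse 784. The log2 difference was -0.58 (SE 0.24, limma adjusted p = 0.331). The interaction term over all 12 libraries, the colon difference minus the bladder difference, was 1.60 on the log2 scale for *Tnc* (SE 0.28, limma adjusted p = 0.0966), again the 19th smallest p, of 16298 genes. The interaction was thus not past the threshold, which 0 of 10 members and 0.0491% of all genes passed, and it did pass without Ctrl bladder mouse 784 (1.81, adjusted p = 0.0343).

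The order of the organs for *Tnc* was opposite in the 2 genotypes. In Ctrl mice every colon library was below every bladder library (log2 difference, colon minus bladder, -0.94, SE 0.20, limma adjusted p = 0.00208), and in Y/T KO mice every colon library was above every bladder library (0.66, SE 0.20, adjusted p = 0.0159). The second call was lost with TPM as deposited (0.39, adjusted p = 0.125) and without Y/T KO bladder mouse 780 (0.45, adjusted p = 0.0662). Mice with both tissues showed the same order within the animal, with colon and bladder at 47.6 and 129 TPM in Ctrl mouse 788, at 91.0 and 87.8 TPM in mouse 783, and at 102 and 56.5 TPM in mouse 780 (both Y/T KO). In mouse 783 the organs lay close together. An antisense gene on the opposite strand, 8030451A03Rik, covers 67162 bases of the *Tnc* locus and reached at most 0.858 TPM.

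*Tnxb* encodes tenascin-X, which binds collagen fibrils and is needed for the strength of connective tissue (ENSMUSG00000033327, chr17:34670535-34719815, plus strand). It stood at 17.0, 13.9, and 14.9 TPM in Ctrl colons, 10.5, 16.3, and 7.83 TPM in Y/T KO colons, 33.8, 38.5, and 33.4 TPM in Ctrl bladders, and 38.3, 28.0, and 32.3 TPM in Y/T KO bladders. Genotypes overlapped in both organs, with log2 differences of -0.43 (SE 0.27, limma adjusted p = 0.641) and -0.11 (SE 0.12, adjusted p = 0.717). The ratio of *Tnc* to *Tnxb* in TPM was 2.79 to 3.52 in Ctrl colon and 5.57 to 13.0 in Y/T KO colon, and 2.40 to 3.87 and 1.75 to 3.14 in Ctrl and Y/T KO bladder. The tenascins therefore did not move together in the colon, where *Tnc* was higher in each Y/T KO library and *Tnxb* was not.

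**Figure D2:**
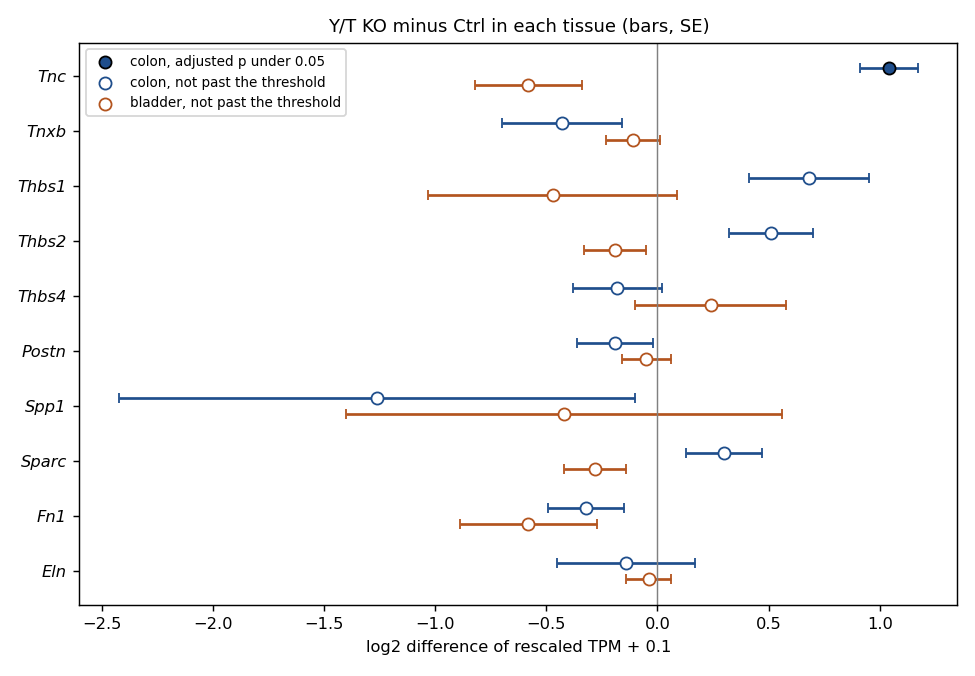
Log2 difference of rescaled TPM + 0.1 between Y/T KO and Ctrl (x axis, bars are SE) for each of the 10 genes (y axis) in colon (blue) and bladder (orange), from 3 libraries per group. Filled points passed an adjusted p under 0.05 by limma, which *Tnc* in the colon (1.04) did and the other 19 differences did not.

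The thrombospondins were divided between the organs. *Thbs4* encodes a pentameric thrombospondin known from muscle and tendon attachments (ENSMUSG00000021702, chr13:92751590-92794818, minus strand). Its levels were 272, 240, and 290 TPM in Ctrl colons and 262, 256, and 180 TPM in Y/T KO colons, against 3.91, 2.89, and 1.88 TPM in Ctrl bladders and 2.59, 3.65, and 3.75 TPM in Y/T KO bladders. The organs did not overlap in either genotype. *Thbs4* was 111-fold higher in colon than bladder in Ctrl (log2 difference 6.79, SE 0.27, limma adjusted p = 3.63e-09) and 81.6-fold higher in Y/T KO (6.35, adjusted p = 6.46e-09). Its genotype differences were -0.18 in colon (SE 0.20, adjusted p = 0.774) and 0.24 in bladder (SE 0.34, adjusted p = 0.784).

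*Thbs2* encodes a trimeric, antiangiogenic thrombospondin that also takes part in collagen fibril assembly (ENSMUSG00000023885, chr17:14665500-14694235, minus strand). It stood at 7.67, 10.9, and 10.3 TPM in Ctrl colons and 15.0, 12.2, and 12.6 TPM in Y/T KO colons, against 157, 189, and 196 TPM in Ctrl bladders and 181, 168, and 130 TPM in Y/T KO bladders. Here bladder was the higher organ, 15.6-fold in Ctrl (log2 difference, colon minus bladder, -3.97, SE 0.16, limma adjusted p = 5e-09) and 9.80-fold in Y/T KO (-3.29, adjusted p = 2.43e-08). Within the colon all Y/T KO libraries were above all Ctrl libraries, by a log2 difference of 0.51 (SE 0.19) that did not pass the test (limma adjusted p = 0.485). Bladder gave -0.19 (SE 0.14, adjusted p = 0.585), and the interaction of 0.67 (SE 0.23) had an adjusted p of 0.288 by limma.

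*Thbs1*, the other trimeric thrombospondin, which can activate latent TGF-β (ENSMUSG00000040152, chr2:118111876-118127133, plus strand), varied more widely within groups than *Thbs2* and *Thbs4* except in Ctrl colon, where its coefficient of variation was 6.92%. It stood at 33.3, 32.8, and 29.3 TPM in Ctrl colons, 35.7, 45.1, and 75.8 TPM in Y/T KO colons, 45.1, 202, and 79.4 TPM in Ctrl bladders, and 47.3, 76.8, and 75.7 TPM in Y/T KO bladders. The colon genotypes did not overlap, yet the lowest Y/T KO library lay close to the highest Ctrl library, and the log2 difference of 0.68 (SE 0.27) did not pass the test (limma adjusted p = 0.492). The bladder difference was -0.47 (SE 0.56, adjusted p = 0.733) and became 0.12 without Ctrl mouse 785, the library at 202 TPM. In that library *Ctgf* and *Cyr61*, which encode the matricellular proteins CCN2 and CCN1 and are known YAP/TAZ targets, stood at 769 and 658 TPM, against 28.0 and 64.0 TPM and 7.28 and 93.1 TPM in the other Ctrl bladders. These 2 genes were chosen after their values were seen. *Thbs1* was lower in Ctrl colon than in Ctrl bladder (-1.24, SE 0.47, limma adjusted p = 0.0465), a call lost in 9 of the 12 fits with a library left out and moved furthest without mouse 785 (-0.66, adjusted p = 0.143), and the organs overlapped in Y/T KO (-0.11, SE 0.47, adjusted p = 0.857).

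As a share of the TPM summed over *Thbs1*, *Thbs2*, and *Thbs4*, *Thbs4* made up 84.6% to 88.0% in Ctrl colon and 67.0% to 83.8% in Y/T KO colon, but 0.677% to 1.90% in Ctrl bladder and 1.12% to 1.79% in Y/T KO bladder. *Thbs2* made up 2.45% to 4.81% over all colon libraries and 48.0% to 78.4% over all bladder libraries. The summed level of the 3 genes overlapped between the organs, at 268 to 330 TPM in colon and 206 to 394 TPM in bladder. Each Y/T KO colon library had a lower *Thbs4* share than each Ctrl colon library, a description of the 3 levels above and not a test.

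**Figure D3:**
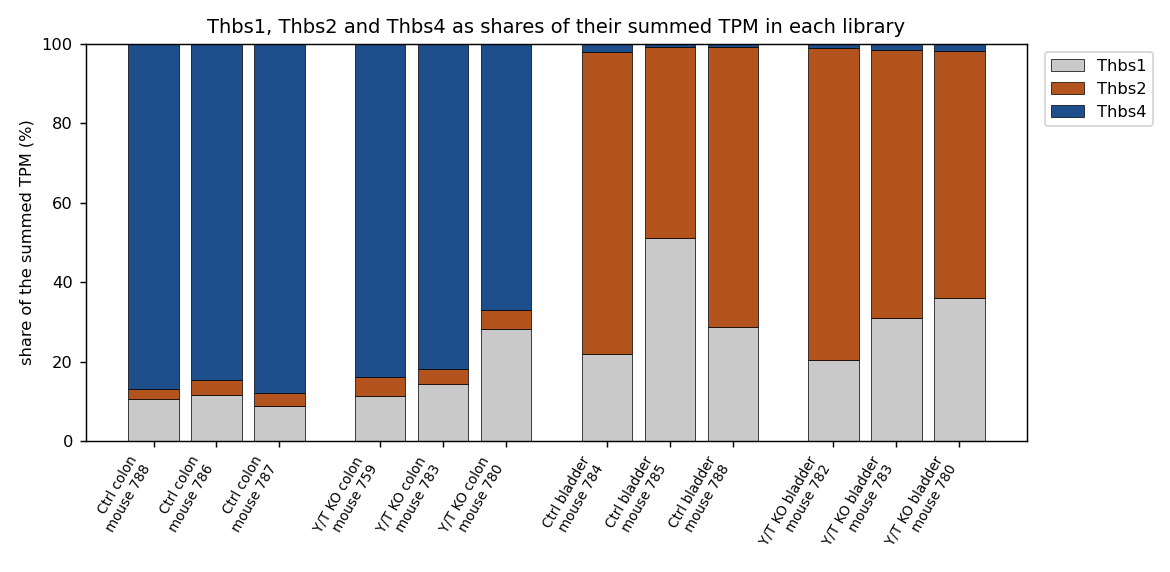
Share of the summed TPM of *Thbs1* (grey), *Thbs2* (orange), and *Thbs4* (blue) in percent (y axis, from 0 to 100) in each library (x axis, group and mouse). *Thbs4* fills 67.0% to 88.0% of each colon bar, and *Thbs2* is the larger part of each bladder bar except that of Ctrl mouse 785 (48.0%).

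*Postn*, which encodes periostin, a fasciclin-domain protein that promotes collagen cross-linking (ENSMUSG00000027750, chr3:54361109-54391037, plus strand), was called with more RNA in colon in both genotypes. It stood at 566, 656, and 550 TPM in Ctrl colons, 496, 615, and 418 TPM in Y/T KO colons, 371, 437, and 378 TPM in Ctrl bladders, and 361, 409, and 378 TPM in Y/T KO bladders. Colon was above bladder in every library of each genotype, by a log2 difference of 0.84 in Ctrl (SE 0.14, limma adjusted p = 0.000387) and 0.67 in Y/T KO (adjusted p = 0.00178). Genotype differences were -0.19 in colon (SE 0.17, adjusted p = 0.719) and -0.05 in bladder (SE 0.11, adjusted p = 0.876), with overlapping libraries in both.

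*Sparc* encodes SPARC, or osteonectin (ENSMUSG00000018593, chr11:55394500-55423183, minus strand). Its levels were 935, 951, and 906 TPM in Ctrl colons, 924, 1149, and 1317 TPM in Y/T KO colons, 3996, 4131, and 4919 TPM in Ctrl bladders, and 4291, 3672, and 2906 TPM in Y/T KO bladders. Bladder was 3.88-fold higher than colon in Ctrl (log2 difference, colon minus bladder, -1.96, SE 0.16, limma adjusted p = 1.47e-06) and 2.64-fold higher in Y/T KO (-1.40, adjusted p = 2.11e-05). The genotype difference was 0.30 in colon (SE 0.17, adjusted p = 0.611) and -0.28 in bladder (SE 0.14, adjusted p = 0.425). The interaction of 0.55 (SE 0.23, limma adjusted p = 0.349) was, with those of *Tnc* and *Thbs2*, 1 of 3 among the members at an unadjusted p under 0.05, a rule that 12.6% of all genes met.

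*Fn1* (ENSMUSG00000026193, chr1:71585520-71653200, minus strand) stood at 407, 552, and 409 TPM in Ctrl colons, 325, 427, and 313 TPM in Y/T KO colons, 681, 1535, and 1424 TPM in Ctrl bladders, and 964, 710, and 646 TPM in Y/T KO bladders. Bladder was the higher organ in both genotypes, 2.11-fold in Ctrl (log2 difference, colon minus bladder, -1.08, SE 0.26, limma adjusted p = 0.00506) and 1.79-fold in Y/T KO (-0.84, adjusted p = 0.0193). The Y/T KO call was lost without colon mouse 759, colon mouse 780, or bladder mouse 782 (adjusted p 0.0563, 0.0645, and 0.0737 by limma). Genotypes overlapped in both organs, at -0.32 in colon (SE 0.17, adjusted p = 0.585) and -0.58 in bladder (SE 0.31, adjusted p = 0.437), where Ctrl mouse 784 was the library within the Y/T KO range.

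*Eln* (ENSMUSG00000029675, chr5:134702593-134747323, minus strand) stood at 91.9, 83.4, and 75.9 TPM in Ctrl colons, 43.6, 100, and 91.4 TPM in Y/T KO colons, 190, 225, and 198 TPM in Ctrl bladders, and 203, 203, and 190 TPM in Y/T KO bladders. The bladder libraries of both genotypes were alike, with a log2 difference of -0.04 (SE 0.10, limma adjusted p = 0.884). In the colon, mouse 759 stood apart from the other Y/T KO mice, and the difference of -0.14 (SE 0.31, adjusted p = 0.897) became 0.24 without it. Bladder exceeded colon 2.04-fold in Ctrl (-1.03, SE 0.25, limma adjusted p = 0.0048) and 2.23-fold in Y/T KO (-1.16, adjusted p = 0.00225).

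**Figure D4:**
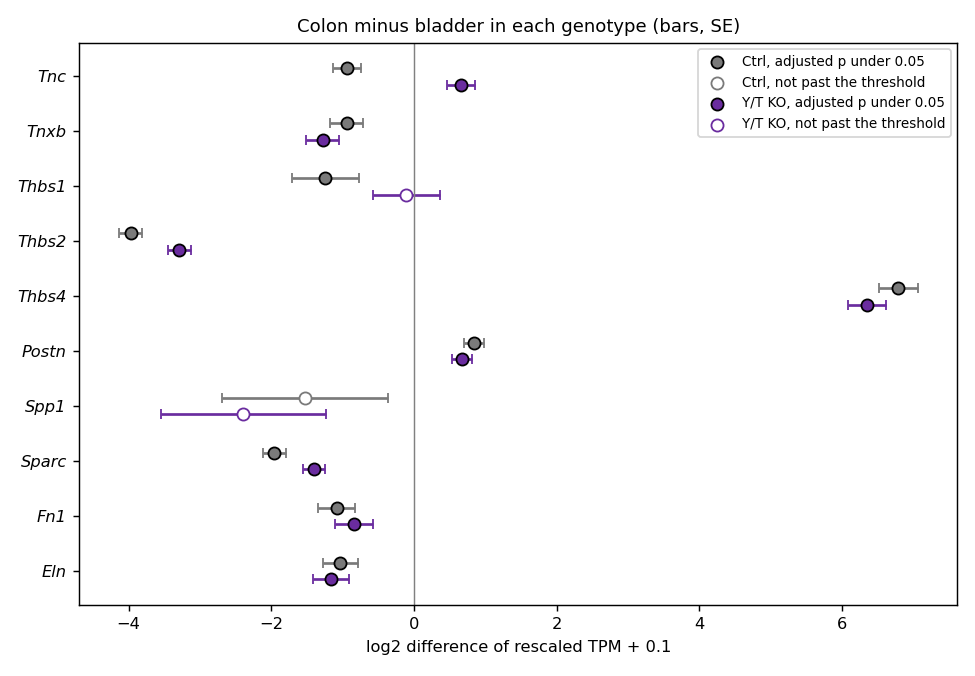
Log2 difference of rescaled TPM + 0.1 between colon and bladder (x axis, positive where colon is higher, bars are SE) for each of the 10 genes (y axis) in Ctrl (grey) and Y/T KO (purple), from 3 libraries per group. Filled points passed an adjusted p under 0.05 by limma, and *Tnc* lies at -0.94 in Ctrl and 0.66 in Y/T KO, on opposite sides of 0.

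Between organs, 9 of 10 members were called in Ctrl, 2 higher and 7 lower in colon, against 50.4% of the 19773 genes tested, and 8 of 10 in Y/T KO, 3 higher and 5 lower, against 51.3%. The members' median log2 difference (colon minus bladder) was -1.05 in Ctrl and -1.0 in Y/T KO, beside 0.014 and 0.005 over all genes. The 2 contrasts compare separate libraries, with mouse 788 giving both organs in the first and mice 783 and 780 in the second. They come from the same fit over all 12 libraries, with shared size factors and a shared estimate of the spread. Their tests are therefore not independent. The fibroblast markers summed to 9562 to 12804 TPM over the bladder libraries and 2429 to 3275 TPM over the colon libraries, and smooth muscle markers were also higher in bladder; their part in the members' differences was not tested. With TPM as deposited, the median of all genes shifted by -0.26 in Ctrl and -0.27 in Y/T KO, so that the organ differences are relative to the rescaling.

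*Spp1* had no call in any comparison, and its libraries varied within groups instead. Osteopontin is an acidic phosphoprotein known from bone and, in soft tissue, from macrophages (ENSMUSG00000029304, chr5:104435118-104441050, plus strand). It stood at 32.7, 205, and 31.2 TPM in Ctrl colons, 51.5, 5.48, and 48.9 TPM in Y/T KO colons, 77.6, 575, and 195 TPM in Ctrl bladders, and 302, 46.0, and 259 TPM in Y/T KO bladders. Ctrl colon mouse 786 and Ctrl bladder mouse 785 were high, and Y/T KO mouse 783 was the lowest of its group in both organs. Genotype differences were -1.26 in colon (SE 1.16, limma adjusted p = 0.741) and -0.42 in bladder (SE 0.98, adjusted p = 0.873), and organs differed by -1.53 in Ctrl (SE 1.16, adjusted p = 0.306) and -2.39 in Y/T KO (SE 1.16, adjusted p = 0.111). The colon genotype difference depended on single libraries, at -0.20 without Y/T KO mouse 783, -0.43 without Ctrl mouse 786, and -1.81 without Y/T KO mouse 759. A gene of unknown coding status on the same strand, Gm42793, shares 1252 bases with the *Spp1* locus and was at 0.0161 to 1.54 TPM.

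Among 12773 genes with a mean of at least 5 TPM, those with the pattern most like *Spp1* over the 12 libraries were *Chil3* (Pearson r 0.971 on the log2 scale), *Olr1* (0.963), and *Ddx5* (0.960). After the group means were subtracted they were *Olr1* (0.982), *Ddx5* (0.971), and *Arg1* (0.969). *Chil3* and *Arg1* encode a chitinase-like protein and arginase 1, known markers of alternatively activated macrophages, and *Olr1* encodes a scavenger receptor for oxidized lipoprotein. *Arg1* stood at 60.3, 265, and 31.3 TPM in Ctrl colons, 56.2, 3.73, and 32.2 TPM in Y/T KO colons, 232, 1036, and 438 TPM in Ctrl bladders, and 331, 27.8, and 273 TPM in Y/T KO bladders. *Chil3* ran from 1.85 TPM in Y/T KO colon mouse 783 to 265 TPM in Ctrl bladder mouse 785, and *Olr1* from 0.07 to 26.2 TPM in the same 2 libraries. The 8 macrophage markers summed to 530, 588, and 428 TPM in Ctrl colons and 560, 767, and 837 TPM in Y/T KO colons. In bladder they summed to 1072, 1408, and 1418 TPM (Ctrl) and 1288, 898, and 1190 TPM (Y/T KO). Y/T KO mouse 783 was thus lowest of its group in bladder but not in colon. The 7 neutrophil and monocyte markers were lowest of the Y/T KO libraries in mouse 783 (134 TPM in colon, 57.4 TPM in bladder). Their highest Ctrl sums were in colon mouse 786 (219 TPM) and bladder mouse 785 (221 TPM). These correlations are descriptions over 12 libraries that share mice and tissues, picked as the highest of many.

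**Figure D5:**
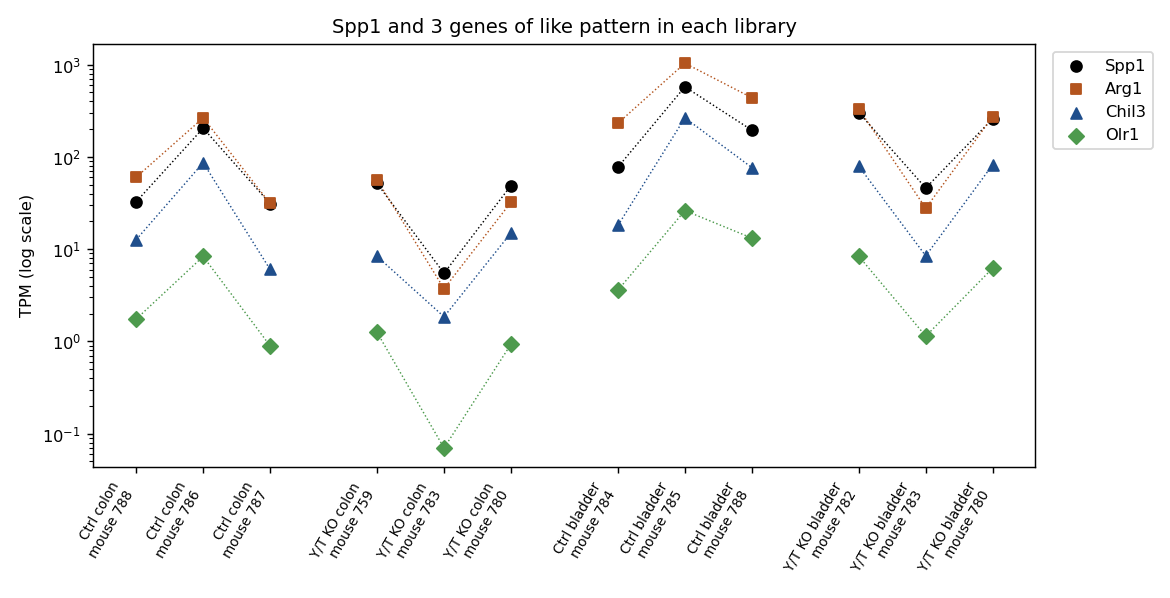
TPM on a log axis (y) of *Spp1*, *Arg1*, *Chil3*, and *Olr1* in each of the 12 libraries (x axis, group and mouse), with dotted lines joining the libraries of a group for legibility. Y/T KO mouse 783 is lowest of its group for all 4 genes in both organs, with *Spp1* at 5.48 TPM in colon and 46.0 TPM in bladder. *Ddx5*, also among the genes most like *Spp1*, is not drawn.

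Over the 12 libraries, *Clic6* had r 0.999 with *Thbs4*, *Dkk2* and *Shh* had r 0.997 each with *Thbs2*, *Jag2* and *Col1a2* had r 0.993 each with *Sparc*, and *Cd248*, a stromal surface glycoprotein, had r 0.967 with *Tnxb*. Among the members themselves, r was -0.99 between *Thbs2* and *Thbs4* and 0.98 between *Thbs2* and *Sparc*. After the group means were subtracted the same pairs had r of -0.26 and 0.23. In Ctrl, *Clic6* was 99.3-fold higher in colon and *Shh* 300-fold higher in bladder, so their r with *Thbs4* and *Thbs2* largely restate the organ difference. After subtraction *Cd248* was still the gene most like *Tnxb* (r 0.952). The other genes named here were not among the 3 most like their member.

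The gene most like *Tnc* was *Olfml3*, an olfactomedin-like secreted glycoprotein, with r 0.900. *Olfml3* stood at 3.65, 4.46, and 3.68 TPM in Ctrl colons and 18.5, 25.1, and 22.9 TPM in Y/T KO colons, and at 16.3, 43.7, and 53.7 TPM in Ctrl bladders and 18.7, 20.7, and 13.4 TPM in Y/T KO bladders. It rose in Y/T KO colon (log2 difference 2.50, SE 0.18, limma adjusted p = 0.00458), gave -0.96 in the bladder (SE 0.44, adjusted p = 0.374), and was 1 of the 8 genes called for the interaction (3.44, SE 0.49, adjusted p = 0.0435). *Mrpl17* (0.865) and *Lsm10* (0.820) followed. *Olfml3* was picked for its likeness to *Tnc* over these same libraries, so its like directions are not separate support. After the group means were subtracted, the 3 genes most like *Tnc* were *Ighv1-82* (0.943), *Fam83d* (0.931), and *1700066B19Rik* (0.910), and *Olfml3* was not among them.

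Of the related genes, 126 were in the files, in 4 lists of elastic fiber components, other matricellular and adhesive glycoproteins, small leucine-rich proteoglycans, and receptors of the members. In the colon 0 of the 30, 37, 10, and 33 genes tested from these lists were called by limma. At an unadjusted p under 0.05, 4 elastic fiber genes were higher and 0 lower, 9 and 2 of the matricellular genes, 4 and 3 of the proteoglycans, and 2 and 4 of the receptors, against 5.14% of all genes higher and 4.59% lower. The medians of the lists in the colon were 0.03, 0.17, 0.18, and 0.01, beside 0.006 over all genes.

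The elastic fiber gene with the smallest p in the colon was *Adamtsl2*, which encodes a fibrillin-binding protein and had means of 0.502 ± 0.0621 (Ctrl) and 6.33 ± 3.19 TPM (Y/T KO; SD, n = 3; log2 difference 3.29, SE 0.44, limma adjusted p = 0.0557). *Ltbp2*, a latent TGF-β binding protein family member, followed at 0.349 ± 0.204 and 2.64 ± 1.08 TPM (2.67, SE 0.49, adjusted p = 0.143). In the matricellular list, *Nov* (CCN3) had 82.2 ± 8.84 TPM in Ctrl colon and 28.9 ± 7.16 TPM in Y/T KO colon (-1.49, SE 0.20, limma adjusted p = 0.0569), and the SPARC relative *Smoc2* had 57.0 ± 2.53 and 85.0 ± 1.69 TPM (0.61, SE 0.13, adjusted p = 0.237). None of these 4 genes passed the threshold. With all 12 libraries fitted and the mouse as a block, 4 related genes were called in the colon (*Adamtsl2*, *Ltbp2*, *Ptprz1*, and *Nov*). The proteoglycans *Epyc* and *Podn* (log2 differences 2.70 and -0.96, limma adjusted p = 0.236 and 0.252) and the receptors *Ptprz1* and *Itga1* (-2.37 and -0.65, adjusted p = 0.138 and 0.36) had the smallest p of their lists.

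In the bladder the receptor *Ptprz1*, a receptor-type tyrosine phosphatase that binds tenascins, was the only gene of the 4 lists called. It stood at 4.71, 9.37, and 6.55 TPM in Ctrl bladders and 0.597, 0.71, and 0.675 TPM in Y/T KO bladders, and fell by 3.14 on the log2 scale (SE 0.30, limma adjusted p = 0.0166), 8.83-fold. At an unadjusted p under 0.05 limma gave 2 higher and 7 lower elastic fiber genes, 5 and 7 matricellular genes, 3 and 1 proteoglycans, and 1 and 11 receptors, against 6.64% of all genes higher and 8.2% lower. The *Ptprz1* call was lost in 5 of the 6 fits with a bladder library left out. In the colon *Ptprz1* was at 1.93, 2.70, and 2.22 TPM in Ctrl colons and 0.698, 0.239, and 0.23 TPM in Y/T KO colons, and the genotypes did not overlap. Of the other bladder genes named by the smallest p, the matricellular *Spon2* had means of 158 ± 27.3 (Ctrl) and 81.1 ± 12.4 TPM (Y/T KO), a difference of -0.96 (SE 0.15, limma adjusted p = 0.0838), and *Tinagl1* a difference of -1.28 (adjusted p = 0.146). The collagen and elastin chaperone *Fkbp10* and the cross-linking enzyme *Loxl1* had -0.69 and -0.56 (adjusted p = 0.141 for both by limma), and the proteoglycans *Dcn* and *Podn* 0.24 and -0.64 (adjusted p = 0.306 and 0.31).

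Between organs the related lists lay mainly on the bladder side, like the members. In Ctrl mice, limma called 24 of 30 elastic fiber genes lower in colon and 1 higher. Calls lower and higher were 25 and 4 of 37 matricellular genes, 8 and 2 of 13 proteoglycans, and 18 and 4 of 33 receptors, against 25.3% and 25.1% of all genes. In Y/T KO mice the counts called lower and higher in colon were 22 and 0, 20 and 3, 7 and 2, and 17 and 6, against 25.6% and 25.8%. Median differences in Ctrl were -1.24, -1.37, -1.52, and -0.66. The fibulin *Fbln1*, at 64.1 ± 3.35 TPM in Ctrl colon and 636 ± 54.0 TPM in Ctrl bladder (SD, n = 3), differed by -3.05 (SE 0.22, limma adjusted p = 5.22e-07), and the small proteoglycan *Fmod* by -4.78 (SE 0.24, adjusted p = 2.45e-08). *Lgals3* (galectin-3) and *Nov* were on the colon side in Ctrl, by 2.66 and 3.25 (limma adjusted p = 1.98e-07 and 6.66e-07). *Matn2* (-2.26) and the integrin subunit *Itgb1* (-1.18, limma adjusted p = 1.05e-05) were on the bladder side.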

How the data were processed

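Stranded libraries of polyadenylated RNA were made by the authors, and the tools named in the submitters' processing notes are bcl2fastq, FastQC, HISAT2, StringTie, and DESeq2, with GRCm38. For each library the authors deposited TPM, FPKM, and coverage signal per gene. TPM were summed over rows that share a gene ID, for 54532 genes in all. Coordinates in the files matched GENCODE M21 for 53585 of them. Read counts were not used here. The ratio of deposited coverage to FPKM gave the aligned bases per library (2.80 to 3.94 gigabases). Since TPM holds no counts, the counting error of single values was not estimated, and differences were judged by the spread between mice.

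Size factors by the median of ratios (0.966 to 1.107 within a tissue) were used to rescale TPM. Genes that reached 0.5 TPM in 3 or more libraries were fitted as log2(TPM + 0.1) by limma 3.58.1 in R 4.3.3 (lmFit, eBayes with trend and robust), two-sided, with Benjamini-Hochberg adjustment over all genes tested. These log2 differences understate changes of genes near 0. Genotypes were fitted within each tissue, and tissue contrasts and the interaction over all 12 libraries. The fits were run on simulated data with independent noise and planted differences, and the median estimates were checked against the planted values. The simulation had no outlying libraries, shared shifts between genes, or pairing by mouse. It therefore cannot show how far calls depend on these. Means ± SD are of TPM as deposited.

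The members and lists were chosen with earlier results of these data known. All members were named, with up to 4 called genes per related list and contrast by the smallest adjusted p (up to 2 by the smallest p where none was called) and the 3 genes most correlated with a member; of these, those that bear on a member are given. Colon and bladder of mice 788, 783, and 780 are paired by animal in the labels; deviations from the group means correlated at -0.00913, 0.0675, and 0.0437 within these animals. Alternatives were pseudocounts of 0.5 and 1 TPM, no filter, TPM as deposited, FPKM, all 12 libraries in one fit, no trend and robust options, the mouse as a block, and each library left out. Promoter sequences are from RefSeq. Python 3.11.15 with pandas 2.3.3 and with matplotlib 3.10.9 was used for tables and plots.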

Additional observations from a re-analysis of the deposited data

How the results depend on the processing

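Of the 10 members, 1 was called in the colon, and 0 were called with no filter on low values, with all 12 libraries in one fit, without trend and robust options, with the mouse as a block, and with each colon library left out (0 in every fit). The log2 difference of *Tnc* stayed between 0.98 and 1.10, and its limma adjusted p over alternatives that kept all libraries ran from 0.0339 to 0.116. Genes called in the colon numbered 24, and 6 without the filter, 75 with all 12 libraries in one fit, 74 with the block, and 5 to 63 with a library left out (63 without Y/T KO mouse 759, 5 without Ctrl mouse 786, Y/T KO mouse 783, or Y/T KO mouse 780). Related genes called there went from 0 to 1 with FPKM, 4 with all 12 libraries, 4 with the block, and 0 to 4 with a library left out. In the bladder, genes called numbered 55, and related genes called 1 (0 to 1 with a library left out). Genes called there with a library left out numbered 11 to 51 (11 without Ctrl mouse 785 or Ctrl mouse 788). For the interaction, related genes called went from 0 to 1 with a pseudocount of 1 TPM, with TPM as deposited, with FPKM, and with the block (*Nov* each time), and 0 to 2 with a library left out; members called were 0 to 1, and genes called 13 without the filter and 6 to 28 with a library left out. The block changed no other call of a member. Signs turned, for differences that had no call, when a library was left out, and the ranges over those fits were as follows. *Eln* ran from -0.36 to 0.24 in the colon and from -0.35 to 0.24 in the interaction, positive in each without Y/T KO colon mouse 759. In the bladder, *Thbs1* ran from -0.94 to 0.12, *Postn* from -0.12 to 0.03, *Spp1* from -1.11 to 0.42, *Eln* from -0.08 to 0.04, and *Thbs4* from -0.06 to 0.50. Ctrl bladder mouse 785 was the library whose loss turned *Thbs1*, *Postn*, *Spp1* (0.32), and *Eln*; *Postn* also turned without Y/T KO mouse 782 (0.02), *Spp1* without Y/T KO mouse 783, and *Thbs4* without Ctrl mouse 788. *Thbs1* between Y/T KO organs ran from -0.42 to 0.12 (0.12 without colon mouse 759, 0.03 without bladder mouse 783), and *Spp1* in the interaction from -1.69 to 0.20 (0.20 without Y/T KO colon mouse 783). The cause of these changes was not tested. The deposited coverage per gene was not turned into an error, so low levels, such as *Thbs4* in bladder, carry a counting error that was not estimated.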

Other observations

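Within groups, some members departed from the group mean together. Over the 12 libraries, the deviations of *Tnc* correlated with those of *Thbs2* (r 0.69), *Fn1* (0.64), and *Sparc* (0.55), while those of *Tnc* and *Tnxb* had r of -0.10. The gene whose deviations were most like those of *Thbs1* was *Dusp6*, a phosphatase of ERK and an early response gene, with r 0.952. *Cdca4* (0.952) and *Arf2* (0.945) followed closely. *Dusp6* stood at 21.3, 41.3, and 28.8 TPM in Ctrl bladders and 56.2, 64.0, and 83.7 TPM in Y/T KO colons, so that Ctrl bladder mouse 785 and Y/T KO colon mouse 780 were the highest of their groups for *Dusp6* and *Thbs1* alike. In level, *Epha2* (r 0.9) and *Eif1a* (0.887) were most like *Thbs1*. *Klf2*, a flow-responsive transcription factor, came after them with r 0.881 and stood at 14.6, 68.5, and 34.9 TPM in Ctrl bladder. These are descriptions over libraries that share mice and tissues, with the named genes picked among 12773 and the named pairs among all pairs of members.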
